A study of Danio rerio with 12 samples.

Results

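The 77 genes described here encode proteins of the mitochondrial ribosome and were read in 12 zebrafish (Danio rerio) melanomas. They are the genes whose symbol in the deposited table starts with mrpl or mrps and a number. By name 45 belong to the large and 32 to the small subunit, out of 27827 genes listed. In 6 melanomas the tumour carried MiniCoopR-MyrRSK (the MyrRSK group), and in 6 it carried MiniCoopR-GFP (the GFP group). MiniCoopR is a transgenesis vector that returns mitfa, the melanocyte master regulator, to fish that lack it, together with a gene of interest, so both groups carry the mitfa transgene by the vector's design; the genotype of the recipient fish is not in the labels. RSK is the ribosomal S6 kinase, which acts below ERK, and GFP stands in its place in the controls. Promoter, species of the kinase, fish age and whether each tumour had its own fish are not in the labels. A p-value here sets the group difference against the spread among the 12 samples within their groups, which may be technical in part. It takes the samples as independent, which would not hold if some came from the same fish. The only comparison is MyrRSK against GFP melanomas, in a study titled for oxidative phosphorylation and invasion.

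The mitochondrial ribosome makes the few proteins encoded by mitochondrial DNA, nearly all of them core subunits of the respiratory chain. Its RNAs come from mitochondrial DNA, while all of its proteins are encoded in the nucleus, made in the cytosol and imported. The small subunit holds the messenger RNA and the decoding site, and the large subunit joins amino acids and lets the chain out towards the inner membrane. Part of its proteins descend from those of bacterial ribosomes, and part are found in mitochondria only. Genes of the mitochondrial genome are not analysed here.

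The libraries held 61750434 to 72257237 counts. All 77 genes passed the filter on low counts, and their mean normalized counts in the deposited table ran from 423 to 25818, so counting error was small beside the spread between tumours. Of the 77, 75 lay on 22 chromosomes and 2 on unplaced scaffolds of the Zv9 build. Of 8 melanocyte markers, none was at 0 in any library, though mitfa among them is also carried by the vector. Their summed level was 4343 to 18100 CPM in MyrRSK and 1477 to 37780 CPM in GFP melanomas. CPM are counts brought to a common library size after scaling by the trimmed mean of M values; they are not corrected for transcript length. In bulk tumour RNA, a smaller share of cells of a type and less RNA per cell cannot be told apart.

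No mitochondrial ribosomal protein gene passed the threshold, a Benjamini-Hochberg adjusted p under 0.05 over all 26866 genes tested with edgeR's quasi-likelihood test. Most of them nevertheless had higher values in MyrRSK melanomas: 61 of 77 had a positive log2 fold change and 16 a negative one, where 44.9% of all tested genes had a positive one. The median log2 fold change was 0.25 over the 77 genes and -0.07 over all tested genes. With edgeR 0 members were higher and 0 lower at an adjusted p under 0.05, where 0.29% and 0.115% of all tested genes were. With no adjustment, 14 members (18.2%) had a positive value at p under 0.05 and 0 a negative one, against 7.18% and 8.33% of all tested genes. DESeq2 called 1 member higher and 0 lower (2.91% and 2.83% of all genes), limma-voom called 0 in either direction (0.32% and 0.0744%), and the authors' deposited table puts 1 above and 0 below the GFP group (2.88% and 2.29%). The 1 gene is mrps18a both times. The median over the 77 stayed between 0.12, with a muscle covariate, and 0.36, without GFP 4, under every alternative run.

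**Figure D1:**
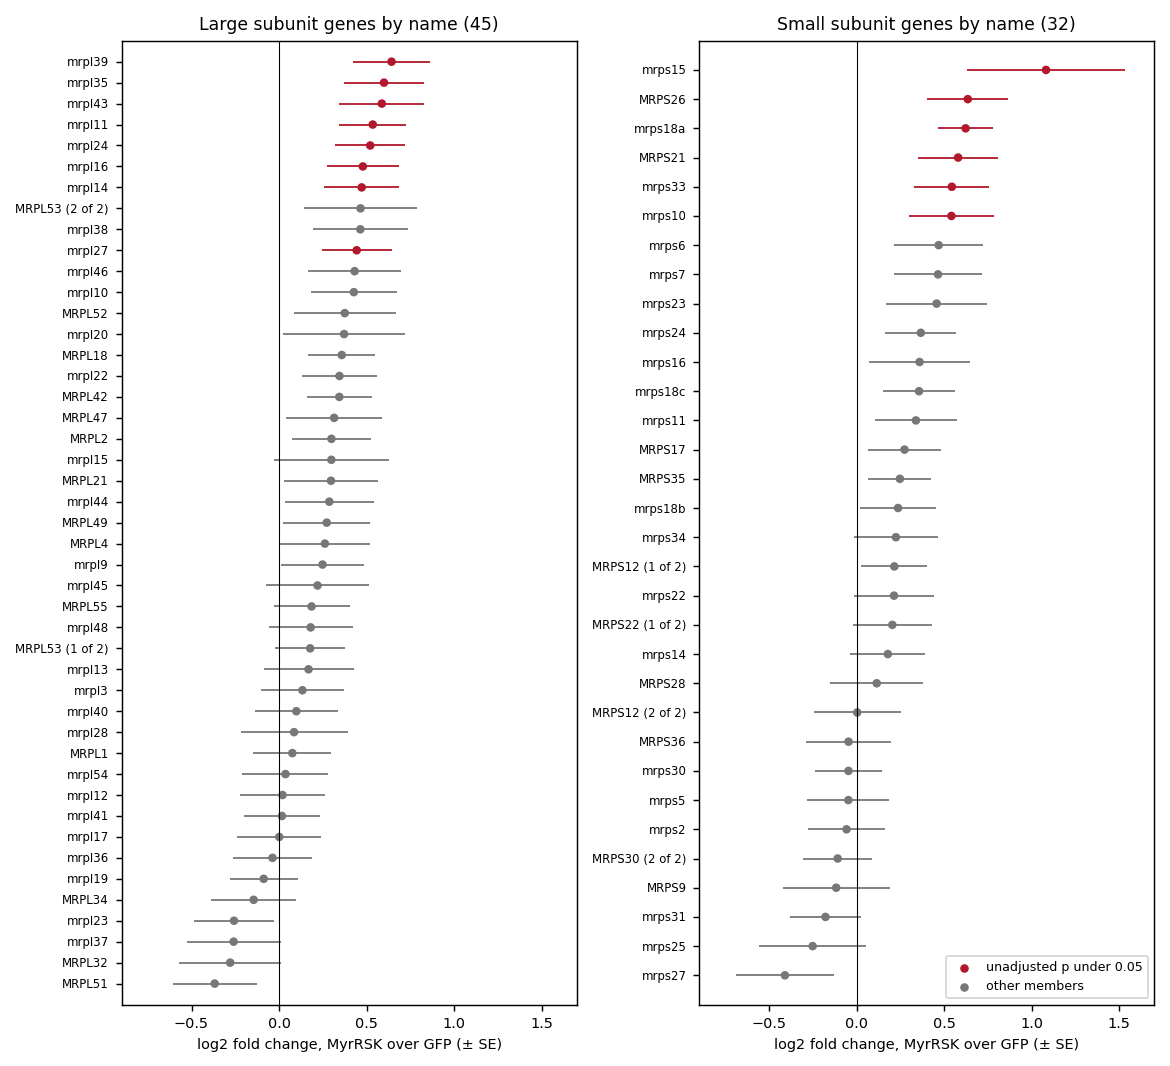
Log2 fold change of each of the 77 genes, MyrRSK over GFP melanomas, with its standard error (edgeR, 6 libraries per group), for the 45 large subunit genes on the left and the 32 small subunit genes on the right. Red marks the 14 genes with an unadjusted p under 0.05, all of them with positive values, and grey the others; no gene passed after adjustment over all genes.

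Averaged over the 77 genes, the log2 CPM was 4.56 ± 0.16 in MyrRSK and 4.30 ± 0.30 in GFP melanomas (SD, n = 6 each), a difference of 0.26 ± 0.14 (SE). This is a description with no test, since the members were chosen with results of these data known. The groups overlapped, with MyrRSK 1 alone above all GFP libraries. Both subunits gave the same difference: large subunit genes averaged 4.51 ± 0.18 in MyrRSK and 4.25 ± 0.32 in GFP melanomas, and small subunit genes 4.63 ± 0.14 in MyrRSK and 4.37 ± 0.28 in GFP melanomas (SD, n = 6 each). The differences were 0.26 ± 0.15 and 0.26 ± 0.13 (SE). The median log2 fold change was 0.27 over the large and 0.23 over the small subunit genes, and 38 of 45 and 23 of 32 were positive. Before adjustment, 8 large subunit genes (17.8%) and 6 small subunit genes (18.8%) had a positive value at p under 0.05, against 7.18% of all tested genes.

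Within each group, the range over single tumours was wider than the difference of the group means (0.26). The SD among tumours was 0.16 in MyrRSK, below that difference, and 0.30 in GFP melanomas. Mean log2 CPM over the 77 genes was 4.84, 4.55, 4.49, 4.64, 4.44 and 4.42 in MyrRSK 1 to 6, and 3.90, 4.24, 4.32, 4.75, 4.50 and 4.10 in GFP 1 to 6. GFP 4 thus lay above every MyrRSK library except MyrRSK 1, and GFP 5 above 3 of them, while GFP 1 and GFP 6 lay lowest. Gene by gene the same libraries stood at the ends. MyrRSK 1 held the highest of the 12 values for 26 members (33.8%, against 7.09% of all tested genes) and GFP 4 for 20 (26%, against 11.8%). GFP 1 held the lowest for 35 (45.5%, against 11.8%) and GFP 6 for 19 (24.7%, against 9.03%). Without GFP 1 the difference of the mean was 0.18, and without GFP 4 it was 0.35. Without both GFP 1 and GFP 2 it was 0.14, and 5 members had a positive and 1 a negative value at p under 0.05 before adjustment (7.61% and 8.46% of all tested genes).

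**Figure D2:**
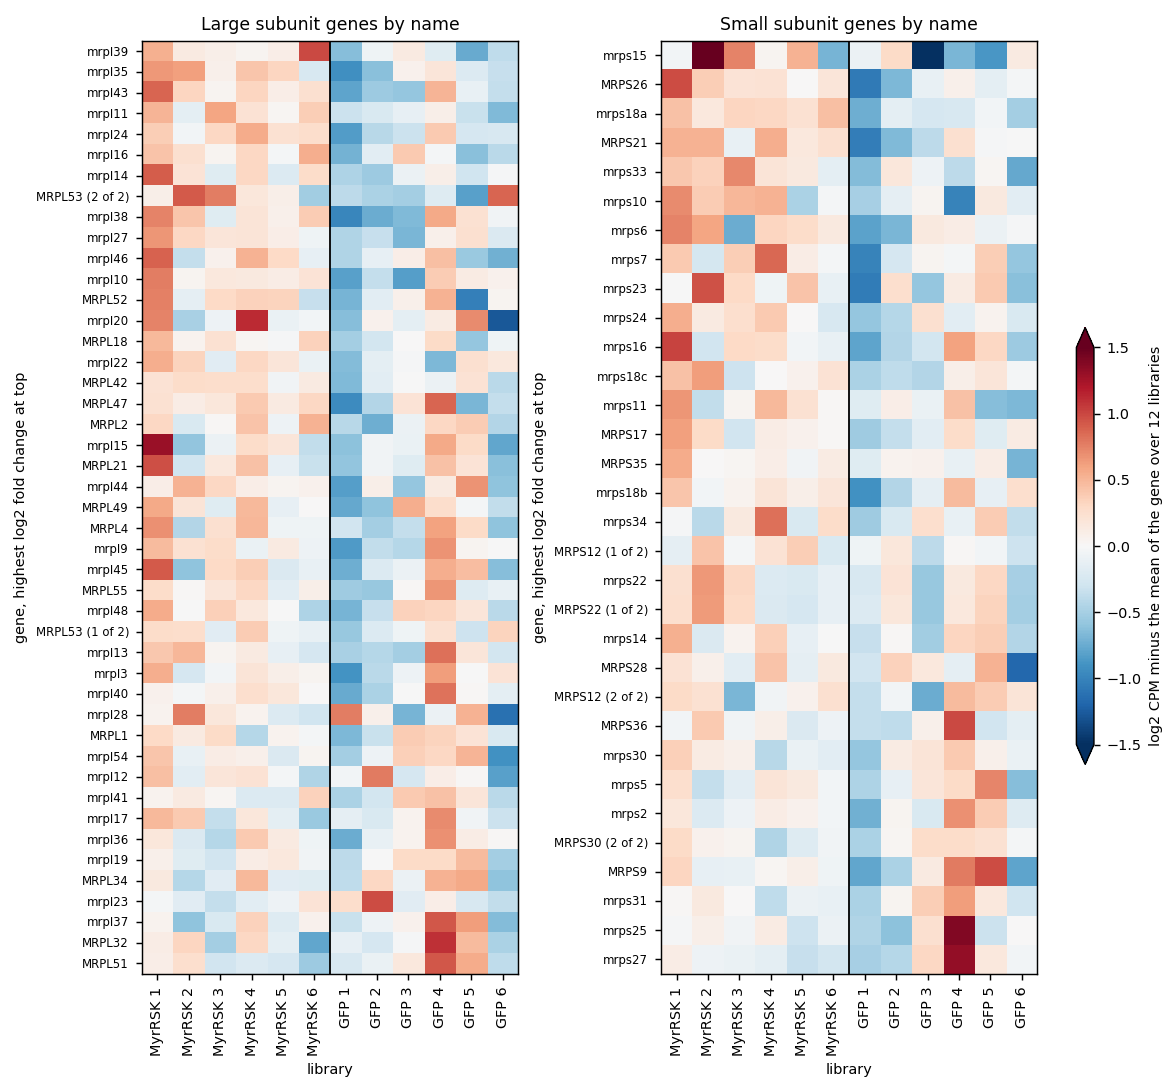
Log2 CPM of each gene in each library after subtracting the mean of the gene over the 12 libraries, with MyrRSK libraries left and GFP libraries right of the black line; colours end at 1.5 in either direction. Columns of 1 colour run through both subunits: MyrRSK 1 and GFP 4 are mostly red and GFP 1 and GFP 6 mostly blue.

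Spread between tumours was smaller in the MyrRSK group, for these genes as for most. The SD of log2 CPM was smaller in MyrRSK than in GFP melanomas for 62 of 77 genes (80.5%), where it was smaller for 69.1% of all tested genes. Its median over the 77 was 0.29 in MyrRSK and 0.46 in GFP melanomas, and over all tested genes 0.50 in MyrRSK and 0.66 in GFP melanomas. The wider range of the GFP group was that of GFP 1 and GFP 6 at the low end and GFP 4 at the high end.

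Markers of other cells and cell cycle genes also differed between libraries. GFP 1 had the highest mean log2 CPM of all libraries for 8 keratinocyte markers (8.73, the others 5.57 to 7.67) and for 4 erythrocyte markers (7.43, the others 1.40 to 5.07). Its mean over 28 cell cycle genes was the lowest (4.75), and MyrRSK 1 and GFP 4, highest in mitochondrial ribosomal protein genes, had means of 5.97 and 5.93, the highest and second highest. Not every library followed. MyrRSK 6, at 4.42 over the 77 genes, had 5.89 over the cell cycle genes. MyrRSK 2 and MyrRSK 4, at 4.55 and 4.64 over the 77 genes, had 5.17 and 5.19. GFP 4 was lowest of all in fibroblast (2.35) and leukocyte markers (4.69). GFP 6, second lowest over the 77 genes, was lowest in the 8 melanocyte markers (6.84, the others 8.23 to 9.90). The mean log2 CPM of the melanocyte markers was 8.89 ± 0.34 in MyrRSK and 8.89 ± 1.12 in GFP melanomas (SD, n = 6 each). The equal means, with GFP 6 far below the rest, do not show equal levels of each marker. Of the 8 log2 fold changes, 7 were negative and 1 positive, with a median of -0.32. None of the 8 had a p under 0.05 before adjustment with edgeR. Summed keratinocyte markers ran from 3190 to 6433 CPM in MyrRSK and from 2382 to 8969 CPM in GFP melanomas, and erythrocyte markers from 133 to 1714 CPM in MyrRSK and from 78.5 to 4717 CPM in GFP melanomas. Summed leukocyte markers ran from 1453 to 3528 CPM in MyrRSK and from 486 to 2170 CPM in GFP melanomas, and fibroblast markers from 269.9 to 1033 CPM in MyrRSK and from 141 to 617 CPM in GFP melanomas. For 4 endothelial markers the sums were 24.0 to 78.6 CPM in MyrRSK and 30.8 to 89.8 CPM in GFP melanomas, and for the cell cycle genes 1630 to 2846 CPM in MyrRSK and 1053 to 2873 CPM in GFP melanomas. The difference of the mean log2 CPM, MyrRSK minus GFP, was 1.24 ± 0.49 (SE) for fibroblast and 0.71 ± 0.38 for leukocyte markers. It was -0.14 ± 0.50 for keratinocyte, -0.48 ± 1.03 for erythrocyte and 0.15 ± 0.29 for endothelial markers. For the cell cycle genes it was 0.06 ± 0.22. All 7 fibroblast markers and 9 of 10 leukocyte markers had positive log2 fold changes. None of these genes was at 0 in any library and none passed the threshold with edgeR. Before adjustment, 4 of 7 fibroblast and 3 of 10 leukocyte genes had a positive value at p under 0.05. So did 1 of 8 keratinocyte and 2 of 28 cell cycle genes, where 7.18% of all tested genes did. The 4 fibroblast genes include 2 entries of the same symbol, pdgfra. A negative value was found for 1 keratinocyte gene (8.33% of all tested genes), and no erythrocyte or endothelial gene had either. Their part in the differences of the ribosomal protein genes was not tested.

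Skeletal muscle markers differed most between the groups. Their mean log2 CPM over 21 tested genes was 1.62 ± 1.71 in MyrRSK and -0.82 ± 0.49 in GFP melanomas (SD, n = 6 each), and all but MyrRSK 3 exceeded the whole GFP group. Of the 21, 2 passed as higher, myhz2 and pvalb2, and 0 as lower with edgeR (0.29% and 0.115% of all tested genes). Their summed level was 208.9 to 1399 CPM in MyrRSK and 79.5 to 1215 CPM in GFP melanomas, and pvalb2 and ckmb were at 0 in at least 1 library. Most of that sum was atp2a1, at 156.2 to 894.5 CPM in MyrRSK and 57.2 to 1194 CPM in GFP melanomas with a log2 fold change of -0.08 ± 0.68, so the sum does not show the difference of the mean. As the muscle mean nearly separated the groups, a fit with it as a covariate cannot fully tell group and muscle apart. With the muscle mean as a covariate the difference of the 77 genes was 0.14. In this fit 50 of 77 log2 fold changes were positive, with a median of 0.12 against -0.07 over all tested genes. The share of all tested genes with a positive value was not computed for it. Of the 77 members, 12 turned from positive to negative and 1 the other way. Before adjustment 4 then had a positive and 1 a negative value at p under 0.05 (4.97% and 4.08% of all tested genes). MyrRSK 2 and MyrRSK 4 were highest in the muscle mean, and without them the difference over the 77 genes was 0.24 and the median 0.25. In that fit 5 members had a positive and 0 a negative value at p under 0.05 before adjustment (5.54% and 5.57% of all tested genes).

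**Figure D3:**
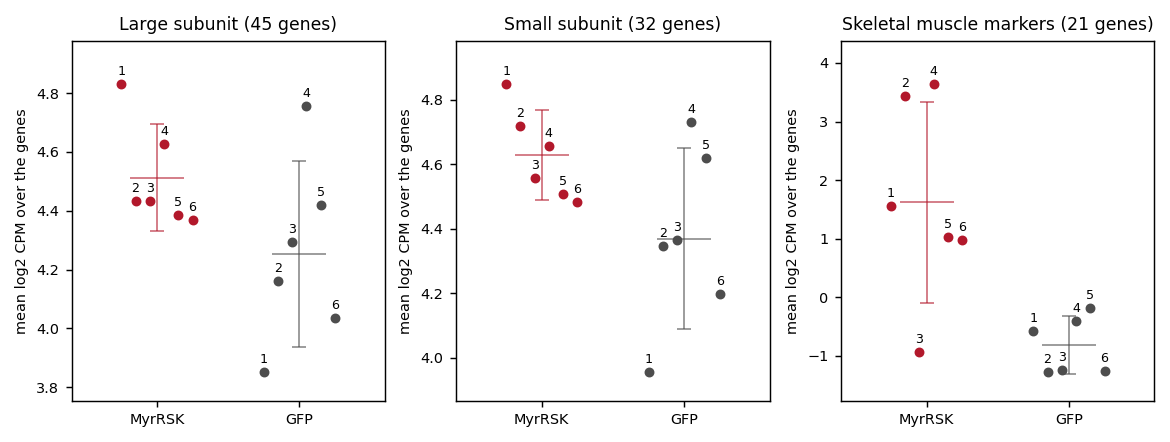
Mean log2 CPM per library over the 45 large subunit genes, the 32 small subunit genes and the 21 skeletal muscle markers, with MyrRSK melanomas in red and GFP melanomas in grey; numbers are the replicates, and bars give the mean and SD of each group. GFP 4 reaches 4.75 over the large and 4.73 over the small subunit genes, within the MyrRSK range, and GFP 1 lies lowest at 3.85 and 3.96.

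The gene that differed most steadily was mrps18a (ENSDARG00000024465, chromosome 4, 5515945 to 5518415, Zv9). Its product is related to bacterial protein S18, and in mammals it sits in the large subunit in spite of its name. It stood at 36.3, 29.97, 33.6, 33.5, 31.5 and 36.6 CPM in MyrRSK 1 to 6, and at 16.2, 24.4, 22.6, 22.8, 26.1 and 18.9 CPM in GFP 1 to 6. The groups did not overlap, which held for this member alone (1.3%) and for 1.01% of all tested genes in this direction; 0 members lay wholly below the GFP group, as did 0.722% of all tested genes. Its log2 fold change was 0.62 ± 0.16 (SE), with an adjusted p of 0.0922 with edgeR, 0.098 with limma-voom and 0.00332 with DESeq2. The authors' deposited table lists 0.60 with an adjusted p of 0.00393. Over the fits with 1 library left out the log2 fold change ran from 0.55 to 0.68 and the adjusted p of edgeR from 0.0953 to 0.182. It was 0.66 with the muscle mean as a covariate (adjusted p of 0.42 with edgeR). That fit called 0.00372% of all tested genes higher and 0% lower at an adjusted p under 0.05. The relatives of mrps18a, mrps18b and mrps18c, had log2 fold changes of 0.24 ± 0.22 and 0.36 ± 0.20. Both values depended on the setting. With the muscle covariate mrps18c gave -0.0079 and mrps18b 0.22. Without GFP 1 and GFP 2, mrps18c gave 0.23 and mrps18b 0.0169.

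Among the large subunit genes with bacterial relatives, those of the stalk, which recruits elongation factors, differed to unequal degrees. The gene mrpl11, whose product lies at the stalk base, had 14.2, 19.2 and 23.6 CPM as lowest, median and highest value in MyrRSK and 9.85, 12.9 and 16.6 CPM in GFP melanomas. Its log2 fold change was 0.53 ± 0.19 (adjusted p = 0.201, edgeR), and 4 of 6 MyrRSK libraries exceeded the whole GFP group. The stalk gene mrpl10 gave 14.8, 15.95 and 24.5 CPM in MyrRSK against 8.11, 13.1 and 18.7 CPM in GFP melanomas, a log2 fold change of 0.43 ± 0.24. For mrpl12, the gene of the L7/L12 protein of the stalk, the values were 30.3, 43.6 and 56.5 CPM in MyrRSK and 23.5, 41.0 and 70.8 CPM in GFP melanomas, and its difference of 0.02 ± 0.24 changed sign under another scaling. The table pairs mrpl12 (chromosome 3, 47698986 to 47733072) with a human gene of another name, SLC25A10, a carrier gene, so its counts may not be those of the ribosomal protein gene alone.

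Other large subunit genes of bacterial descent with an unadjusted p under 0.05 were mrpl14, mrpl16, mrpl24, mrpl27 and mrpl35. For mrpl24 the lowest, median and highest values were 30.7, 38.6 and 46.4 CPM in MyrRSK and 17.8, 25.98 and 41.7 CPM in GFP melanomas, and 5 of 6 GFP libraries lay below every MyrRSK library. GFP 4 was the exception. The log2 fold change was 0.52 ± 0.20, with an adjusted p of 0.229 (edgeR). It was 0.69 without GFP 4, 0.43 without GFP 1 and 0.36 without both GFP 1 and GFP 2. The gene mrpl35 gave 15.8, 24.2 and 29.3 CPM in MyrRSK and 9.83, 15.4 and 21.2 CPM in GFP melanomas, with a log2 fold change of 0.60 ± 0.23 that was 0.31 with the muscle mean as a covariate. The product of mrpl27 lies near the site of peptide bond formation, and its gene had 15.8 to 26.2 CPM in MyrRSK and 10.3 to 19.6 CPM in GFP melanomas (0.44 ± 0.20). The log2 fold change of mrpl14, whose product faces the small subunit, was 0.47 ± 0.22 (0.30 without MyrRSK 1), and that of mrpl16 is given with its neighbour. Adjusted p of these 5 genes ran from 0.226 to 0.315 with edgeR.

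The gene mrpl43, found in mitochondria only, gave 17.7, 20.9 and 31.5 CPM in MyrRSK and 9.92, 12.6 and 24.5 CPM in GFP melanomas. Again GFP 4 alone overlapped the MyrRSK group, and the log2 fold change was 0.59 ± 0.24 (adjusted p = 0.265, edgeR). It was 0.35 with the muscle mean as a covariate.

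The genes mrpl16 and mrpl39 are neighbours on chromosome 1 (399085 to 405632 and 407504 to 466028, Zv9), with 1871 bases and no listed gene between them. Both had an unadjusted p under 0.05. In MyrRSK 1 to 6 mrpl16 stood at 61.0, 53.8, 46.5, 56.5, 44.6 and 66.3 CPM, and in GFP 1 to 6 at 27.7, 40.7, 59.4, 44.5, 29.3 and 34.4 CPM. The values of mrpl39 were 78.8, 59.7, 57.7, 55.9, 58.2 and 108 CPM in MyrRSK 1 to 6, and 34.9, 51.7, 59.6, 47.8, 32.1 and 41.6 CPM in GFP 1 to 6. Both genes were highest in MyrRSK 6 and, within the GFP group, in GFP 3, so the groups overlapped through GFP 3 alone. The log2 fold changes were 0.48 ± 0.21 for mrpl16 and 0.64 ± 0.22 for mrpl39 (adjusted p = 0.282 and 0.183, edgeR).

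The span of mrpl39, a large subunit gene without a bacterial relative, holds parts of other genes. CENPQ, a centromere protein gene, covers 30.9% of it, and stood at 36.6, 23.1, 24.2, 22.2, 23.7 and 55.3 CPM in MyrRSK 1 to 6 and at 13.3, 19.8, 21.8, 17.5, 11.98 and 15.8 CPM in GFP 1 to 6. The ratio of mrpl39 to CENPQ stayed between 1.95 and 2.74 in the 12 libraries. The log2 fold change of CENPQ was 0.89 ± 0.26. Strand use in counting is not given, so reads of the pair may not be told apart.

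**Figure D4:**
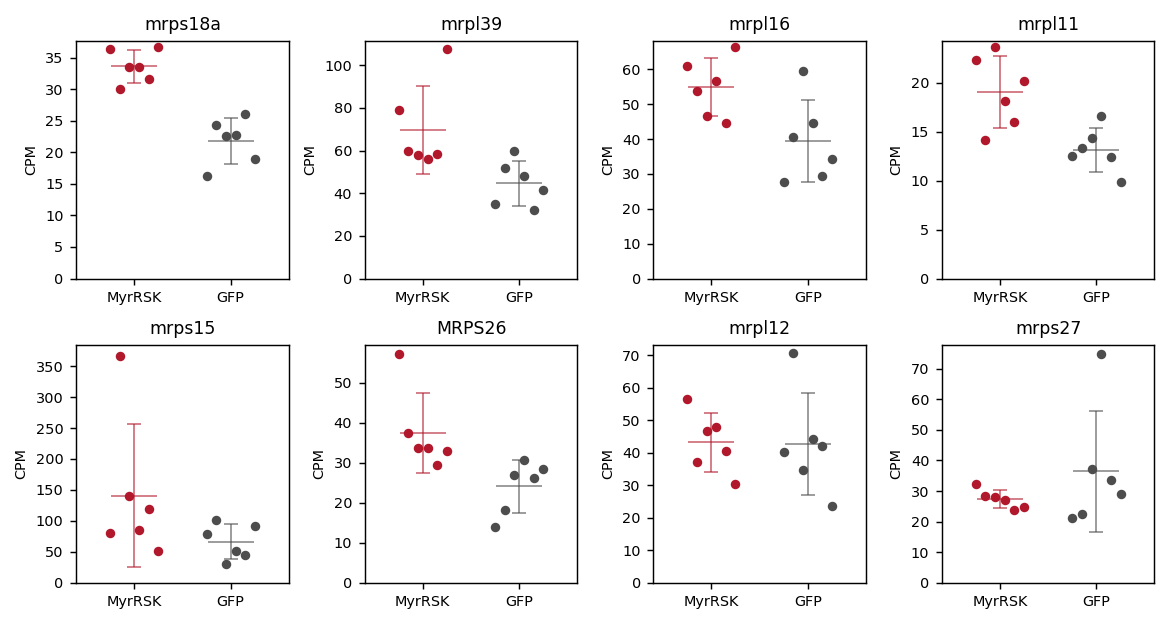
CPM in each library for 8 of the genes, MyrRSK melanomas in red on the left and GFP melanomas in grey on the right of each panel, with the mean and SD of each group; every axis starts at 0. The groups are apart for mrps18a. For mrps15 (MyrRSK 2, 367 CPM), MRPS26 (MyrRSK 1, 57.2 CPM) and mrps27 (GFP 4, 74.9 CPM), 1 library lies far from its group.

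Of the small subunit genes, mrps15, a gene with a bacterial relative, had the largest log2 fold change of all 77 and the least even one. It stood at 80.7, 367, 140, 85.9, 119 and 51.3 CPM in MyrRSK 1 to 6, and at 78.5, 102, 29.6, 51.8, 45.6 and 91.8 CPM in GFP 1 to 6. The groups overlapped, with MyrRSK 2, 3 and 5 above all GFP libraries and MyrRSK 2 far above the rest. The log2 fold change was 1.08 ± 0.45 (adjusted p = 0.272, edgeR), 0.52 without MyrRSK 2, 0.56 without MyrRSK 2 and MyrRSK 4 and 1.36 without GFP 1 and GFP 2. The gene lies on an unplaced scaffold (Zv9_scaffold3563, 240877 to 261913).

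Among small subunit genes found in mitochondria only, MRPS26 had 29.3, 33.7 and 57.2 CPM as lowest, median and highest value in MyrRSK and 13.9, 26.6 and 30.8 CPM in GFP melanomas. Here 5 of 6 MyrRSK libraries exceeded the whole GFP group, and the log2 fold change was 0.63 ± 0.23 (adjusted p = 0.211, edgeR). The highest value was that of MyrRSK 1. The log2 fold change ran from 0.47 to 0.72 with 1 library left out and was 0.41 without GFP 1 and GFP 2. Another, mrps33, gave 15.5, 20.8 and 28.4 CPM in MyrRSK and 10.1, 14.7 and 19.3 CPM in GFP melanomas (0.54 ± 0.21). The bacterial-type genes MRPS21 (0.58 ± 0.23) and mrps10 (0.54 ± 0.24) complete, with mrps18a, the 6 genes named for the small subunit that had an unadjusted p under 0.05. For MRPS21 the value was 0.20 with the muscle mean as a covariate and 0.36 without GFP 1 and GFP 2. The value of mrps33 was 0.69 with the covariate and 0.57 without these libraries.

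The decoding-site protein S12 is encoded by a pair of listed genes, MRPS12 (1 of 2) and MRPS12 (2 of 2), 62598 bases apart on chromosome 21. The first had 9.64, 12.1 and 15.2 CPM in MyrRSK and 8.64, 10.9 and 12.7 CPM in GFP melanomas (0.21 ± 0.19). The second had 6.89, 12.2 and 13.4 CPM in MyrRSK and 6.61, 11.7 and 15.4 CPM in GFP melanomas, with a difference of 0.00 ± 0.25 that changed sign under another scaling. The ratio of MRPS12 (2 of 2) to MRPS12 (1 of 2) ran from 0.62 to 1.38 over the 12 libraries. That of MRPL53 (1 of 2) to MRPL53 (2 of 2), a pair on chromosome 19, ran from 0.70 to 1.90. For mrps22 and MRPS22 (1 of 2), 45802 bases apart on chromosome 15, the ratio stayed between 0.98 and 1.02 in all 12 libraries. Their log2 fold changes were 0.21 ± 0.23 and 0.20 ± 0.23 (0.0859 and 0.0781 without MyrRSK 2), and they may share reads. The other pair, mrps30 on chromosome 5 and MRPS30 (2 of 2) on chromosome 19, encodes a protein of the large subunit in mammals, and had log2 fold changes of -0.05 ± 0.19 and -0.11 ± 0.20 (the second -0.0365 without MyrRSK 4).

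No gene was lower in MyrRSK melanomas at an unadjusted p under 0.05, and GFP 4 held the highest value of several genes with negative fold changes. The gene mrps27, whose product is an RNA-binding protein of the small subunit, stood at 32.3, 28.4, 28.1, 27.1, 23.7 and 24.8 CPM in MyrRSK 1 to 6, and at 21.3, 22.3, 37.4, 74.9, 33.5 and 29.2 CPM in GFP 1 to 6. GFP 1 and GFP 2 lay below all MyrRSK libraries, and GFP 4 far above all of them. Its log2 fold change was -0.41 ± 0.28 (adjusted p = 0.514, edgeR), and -0.07 without GFP 4. The gene mrps25 had 19.98, 24.2 and 26.8 CPM in MyrRSK and 16.2, 22.3 and 64.4 CPM in GFP melanomas, and its difference of -0.25 ± 0.31 was 0.16 without GFP 4. For MRPL51 the values were 25.6, 31.8 and 44.5 CPM in MyrRSK and 28.8, 38.4 and 71.5 CPM in GFP melanomas (-0.37 ± 0.24, and -0.17 without GFP 4). The log2 fold changes of MRPL32 (-0.28 ± 0.29), mrpl37 (-0.26 ± 0.27) and mrps31 (-0.18 ± 0.20) were within about 1 standard error of 0. Without GFP 4 they were -0.0152 for MRPL32, -0.0517 for mrpl37 and -0.0513 for mrps31. MRPS36, which in mammals belongs to the oxoglutarate dehydrogenase complex and not to the ribosome, gave -0.05 ± 0.24, and also had its highest value in GFP 4 (66.2 CPM).

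The gene mrps34, of a small subunit protein found in mitochondria only, drew the most counts of the family, at 286, 395 and 668 CPM as lowest, median and highest value in MyrRSK and 260, 334 and 492 CPM in GFP melanomas (0.22 ± 0.24). Its log2 fold change was 0.0442 without MyrRSK 4 and 0.041 with the muscle covariate. Its annotated span on chromosome 3 runs over 160196 bases (15470754 to 15630949, Zv9) and overlaps those of nme3, hn1l, mapk8ip3 and 1 gene with no symbol. The ratio of mrps34 to nme3, a nucleoside diphosphate kinase gene, stayed between 1.88 and 2.89, and both were highest in MyrRSK 4. The level is therefore not that of mrps34 alone where reads are shared. In the same way 99.2% of the span of mrpl44 lies within agfg1a, and mrpl44 had 18.5 to 25.9 CPM in MyrRSK and 10.2 to 28.7 CPM in GFP melanomas (0.29 ± 0.25). Spans of 10 of the 77 genes overlap another listed gene. Leaving out the 8 with an overlap of at least 50 bases and 1 gene of each of the 4 pairs gave a difference of 0.26 ± 0.15 over 65 genes.

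Neighbouring members kept their proportions to different degrees. The genes mrps11 and mrpl46, of the small and large subunit, are 214 bases apart on chromosome 7, and their CPM ratio stayed between 1.61 and 2.26 in the 12 libraries. The log2 fold changes were 0.34 ± 0.24 for mrps11 and 0.43 ± 0.27 for mrpl46. For mrpl24 and mrpl9, 12169 bases apart on chromosome 19 with 1 listed gene between, the ratio ran from 1.04 to 1.999, and mrpl9 had a log2 fold change of 0.25 ± 0.24. MRPL2, of a protein near the site of peptide bond formation, ran from 44.6 to 75.1 CPM in MyrRSK and from 31.4 to 67.9 CPM in GFP melanomas (0.30 ± 0.22).

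By descent, 46 genes with a bacterial relative had a median log2 fold change of 0.30 and 29 genes found in mitochondria only 0.22, while 2 genes were not classed. Before adjustment, 10 of 46 (21.7%) and 4 of 29 (13.8%) had a positive value at p under 0.05, where 7.18% of all tested genes had; the difference between the classes was not tested. The difference of the mean log2 CPM was 0.29 ± 0.14 for the first and 0.23 ± 0.15 for the second (SE). Counting mrps18a and the mrps30 pair with the large subunit, and leaving out MRPS36, gave differences of 0.25 ± 0.15 for 48 large subunit genes and 0.28 ± 0.13 for 28 small subunit genes.

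Mitoribosomal proteins are also encoded by genes with other names. Of 8 such genes, 6 had positive log2 fold changes, and the median over the 8 was 0.36. At an unadjusted p under 0.05, 2 of the 8 were higher, against 7.18% of all tested genes. They were C9H2orf15, listed as mrpl30 under current names (0.67 ± 0.19), and chchd1 (0.54 ± 0.19). C9H2orf15 averaged 44.1 ± 6.20 CPM in MyrRSK and 27.7 ± 7.04 CPM in GFP melanomas, and chchd1 38.0 ± 10.4 CPM in MyrRSK and 26.1 ± 3.404 CPM in GFP melanomas (SD, n = 6 each). Their adjusted p were 0.12 and 0.195 with edgeR.

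The genes that work with the mitochondrial ribosome had medians from -0.13 to 0.08, and none passed the threshold with edgeR. For the counts below, 7.18% of all tested genes had a positive and 8.33% a negative value at p under 0.05 before adjustment. Over 16 translation factors the median log2 fold change was 0.08, with 0 genes in either direction at p under 0.05 before adjustment; the elongation factor gene gfm1 had 0.35 ± 0.27 and the initiation factor gene mtif3 -0.52 ± 0.25. Over 26 genes of aminoacyl-tRNA synthetases and their relatives, some of which also serve the cytosol, the median was -0.02 with 1 positive and 1 negative at p under 0.05 before adjustment. These were wars2, the mitochondrial tryptophanyl-tRNA synthetase gene (0.79 ± 0.27), and gars, whose glycyl-tRNA synthetase also serves the cytosol (-0.67 ± 0.30). Over 25 genes of ribosome assembly and ribosomal RNA modification it was -0.13, with 0 positive and 4 negative at p under 0.05 before adjustment. The 4 were MTERFD2 (-0.99 ± 0.25), gtpbp10 (-1.03 ± 0.27), NGRN (-0.81 ± 0.34) and mrm1 (-0.66 ± 0.28), and the first 2 had adjusted p of 0.0894 and 0.0962 with edgeR. Over 21 genes of mitochondrial transcription and RNA processing the median was 0.07, while the difference of the mean log2 CPM had the other sign (-0.04 ± 0.11, SE), with 0 positive and 3 negative at p under 0.05 before adjustment. These were the mitochondrial topoisomerase genes TOP1MT (-1.38 ± 0.39), top1mt (-1.27 ± 0.40), and the RNA processing gene FASTKD5 (-0.70 ± 0.25).

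In mammals GTPBP10 is a GTPase of large subunit assembly, and MRM1 methylates the large ribosomal RNA. The assembly factor gtpbp10 averaged 14.1 ± 3.02 CPM in MyrRSK and 28.8 ± 12.3 CPM in GFP melanomas, while MTERFD2 averaged 1.98 ± 0.51 CPM in MyrRSK and 3.94 ± 0.66 CPM in GFP melanomas (SD, n = 6 each). Over the 25 assembly genes GFP 4 (3.99) and MyrRSK 1 (3.66) had the highest mean log2 CPM, as they did over the ribosomal protein genes, and the group means were 3.32 ± 0.19 in MyrRSK and 3.47 ± 0.32 in GFP melanomas. The difference of assembly genes from the 77 was not tested.

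**Figure D5:**
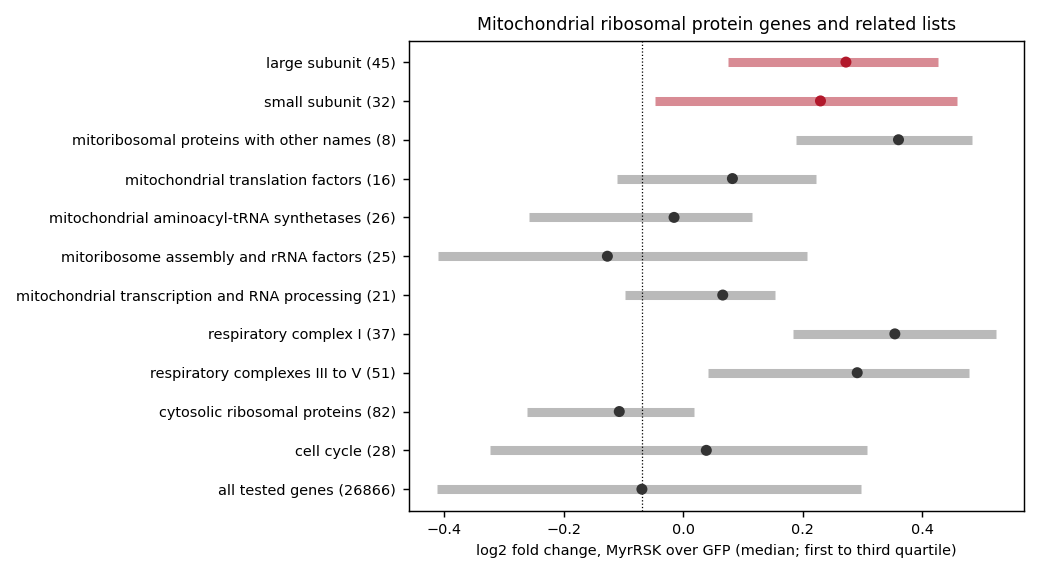
Median (point) and interquartile range (bar) of the log2 fold changes, MyrRSK over GFP, of the genes in each list, with the number of tested genes in brackets; red marks the 2 subunits and the dotted line the median of all tested genes (-0.07). The medians of the subunits (0.27 and 0.23) lie beside those of the respiratory complexes, and those of assembly factors (-0.13) and cytosolic ribosomal proteins (-0.11) on the other side of 0.

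Respiratory chain subunits, which the mitochondrial ribosome's products join, had medians of 0.35 over 37 genes of complex I and 0.29 over 51 genes of complexes III to V. The mean log2 CPM of complex I genes was 5.497 ± 0.11 in MyrRSK and 5.14 ± 0.20 in GFP melanomas. Here 5 of 6 MyrRSK libraries exceeded the whole GFP group, against 1 of 6 for the mitochondrial ribosomal protein genes. With edgeR 0 of these passed. Before adjustment 14 of 37 complex I genes and 12 of 51 of complexes III to V had a positive value at p under 0.05, and 0 a negative one. Of all tested genes 7.18% had a positive and 8.33% a negative value at this limit. The difference from the mitochondrial ribosomal protein genes was not tested. For 82 cytosolic ribosomal protein genes the median was -0.11, with 25 positive values and 0 past the threshold with edgeR, and the mean log2 CPM was 9.51 ± 0.39 in MyrRSK and 9.61 ± 0.45 in GFP melanomas. GFP 5 had the highest of these means (10.2) and GFP 6 the lowest (8.93), while for the mitochondrial ribosomal protein genes GFP 1 was lowest.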

How the data were processed

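PolyA RNA was sequenced from 12 melanomas, 6 MyrRSK and 6 GFP, grouped by their titles. Raw read counts, whole numbers, were deposited by the authors for each gene. The table's normalized columns and mean are a signal, made by the authors as counts over 1 size factor per library; the deposited log2 fold changes, the Wald statistic (a score) and p-values are the authors' own. Per the submitters' processing notes, STAR 2.6.1d, HTSeq 0.6.0, DESeq2 and the Zv9 build were used, with no settings stated. Library totals bound the counting error.

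In R 4.3.3, edgeR 4.0.16 was run with filterByExpr, TMM scaling and a robust quasi-likelihood fit on group alone, with Benjamini-Hochberg adjustment over 26866 genes. Standard errors come from the fold change and F. Log2 CPM has a prior count of 1. DESeq2 1.42.0, limma 3.58.1 (voom), other scalings and filters, left-out libraries, a muscle covariate and a replicate block were alternatives. The procedure was run on simulated counts in which genes varied independently, so variation shared by library was not covered. Members, lists and tests were chosen with earlier results of these data known; the classes by descent were written after the values were seen. Of 77 members 64 had a current name in the table of names used. Named members are those called by any tool, the 8 large and 6 small subunit genes of smallest p, the 3 most negative and 2 highest of each subunit, fixed roles and same-named pairs; other genes named were chosen after their values were seen. Levels are not compared between genes, as no transcript lengths were used. Figures were drawn with matplotlib 3.10.9.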

Additional observations from a re-analysis of the deposited data

Results flagged for a closer look

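A library lay far from the rest of its group (a gap of over 0.625 of the group's range) in 8 of 72 groups checked. Over all members it did so in 16 of 154. This limit flags about 1 in 20 groups of independent, normally distributed values. It is no yardstick here, since the members varied together by library and all 8 flagged values were high ones. The share flagged over all tested genes was not computed. MyrRSK 1 stood apart in MRPS26 at 57.2 CPM (the others 29.3 to 37.5), in mrpl10 at 24.5 CPM (14.8 to 16.6) and in mrpl43 at 31.5 CPM (17.7 to 21.5). MyrRSK 2 stood apart in mrps15 at 367 CPM (51.3 to 140). GFP 4 stood apart in mrps27 at 74.9 CPM (21.3 to 37.4), in mrps25 at 64.4 CPM (16.2 to 29.1) and in MRPS36 at 66.2 CPM (25.5 to 35.1). GFP 6 stood apart in MRPL53 (2 of 2) at 20.2 CPM (6.25 to 9.60).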

How the results depend on the processing

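With edgeR no member was called under any scaling, filter, block, covariate or left-out library. Few genes of any kind were called in some of these fits. Of all tested genes, 0.00372% were called higher and 0% lower with the muscle covariate, and 0.0223% and 0% with the replicate block. Without MyrRSK 2 and MyrRSK 4 it was 0.00365% and 0%, and without GFP 1 and GFP 2 0.0845% and 0.0257%. A count of 0 members in these fits therefore says little about the members. DESeq2 called 1 higher (2.91% of all tested genes), and 1 was higher at an adjusted p under 0.1 with edgeR. Members higher at an unadjusted p under 0.05 numbered 14 (7.18% of all tested genes). With 1 library left out they numbered 8 to 19: 8 without MyrRSK 1 or GFP 1 and 9 without MyrRSK 4 or GFP 2. Without GFP 1 and GFP 2 they numbered 5 (7.61% of all tested genes). Without MyrRSK 2 and MyrRSK 4, chosen after seeing the data, they numbered 5 (5.54%), and with the muscle covariate 4 (4.97%). In the lower direction 1 was found without GFP 1 and GFP 2 (8.46%) and 1 with the covariate (4.08%), against 0 in the main fit (8.33%). The share of all tested genes was not computed for other scalings and filters, for the fits with 1 library left out or for the limit of 0.1. Those counts therefore have no share to be set against. Same-numbered libraries share a number in the labels, and whether they also share a batch is not stated. Correlations of their deviations ran from -0.15 to 0.10, none best with its own number, and a shared batch was not tested. With the replicate block 8 members were higher at an unadjusted p under 0.05 (6.9% of all tested genes). The mean difference over the 77 genes was 0.18 to 0.35 with 1 library left out and 0.23 to 0.26 under other scalings.

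Over all 77 genes the sign changed in 13 with the muscle covariate, in 11 without GFP 1 and GFP 2, in 5 with limma-voom, in 4 without MyrRSK 2 and MyrRSK 4 and in 1 with DESeq2. The covariate turned mrps6 (0.47) to -0.0606, mrpl20 (0.37) to -0.13 and MRPL49 (0.27) to -0.0288. Of the genes named by rule, MRPS12 (2 of 2) gave -0.0251 with upper-quartile scaling, -0.0085 with a mean count of at least 100, -0.10 without GFP 1 and GFP 2, -0.0206 without MyrRSK 2 and MyrRSK 4, -0.37 with the muscle covariate and -0.11 to 0.11 with 1 library left out. MRPS36 gave 0.0340 with the replicate block and 0.0318 with limma-voom, and -0.13 to 0.24 with 1 library left out. For mrpl12 it was -0.0064 with upper-quartile scaling and -0.10 to 0.23 with 1 library left out, and for mrps25 -0.37 to 0.16. For mrps30 it was -0.15 to 0.0331, 0.009998 without MyrRSK 2 and MyrRSK 4 and 0.0352 with the covariate, and for MRPL53 (1 of 2) -0.0768 with the covariate. The cause was not tested.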
